A study of Rattus norvegicus with 8 samples.

Results

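The genes examined here encode the enzymes of glycolysis, the polyol pathway and the pentose phosphate pathway, with the lactate carriers and the switch at pyruvate dehydrogenase, in sciatic nerve tissue. Members were chosen by gene symbol: of 33 listed genes, 32 had a row in the deposited values and 31 had a read in at least 1 library, out of 22798 genes with a read in the whole series. Pgd had no row. Slc2a3, the glucose carrier of neurons, was listed at 0 in all 8 libraries. All 31 members with a read passed the filter on low values, at least 10 normalized read counts in at least 2 libraries.

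Bulk RNA-seq was examined for 3 PEG-fused peripheral nerve allografts (PNAs; PEG), 3 negative control PNAs (NC) and 2 unoperated sciatic nerves (Unop). All came from outbred female Sprague Dawley rats aged 3 to 6 months, and both kinds of PNA were excised at 14 days post-operatively (PO), from hosts that were not matched to their donors and had no immunosuppression. Both kinds of PNA received the same sutures, hypotonic salines and methylene blue, and only the PEG-fused PNAs received polyethylene glycol (PEG), which seals the membranes of cut axons together. The contrast of PEG with NC asks what goes with successful fusion of the allograft, and each contrast with Unop asks how far an operated nerve lies from an intact one.

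Values are normalized read counts, reads per gene divided by a size factor of the library, with 32472925 to 39959620 reads on genes per library. Fold changes come from limma, fitted to all 8 libraries together after adding 1 and taking log2. A gene is called at a Benjamini-Hochberg adjusted p under 0.05 over the 16478 genes tested, and is a DEG where its log2 fold change is also above 1 or below -1. The replicates are separate nerves, but Unop has only 2, so comparisons with it lean on the spread of the other groups.

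Before the results, 2 libraries have to be set apart. The summed normalized counts of 9 transcripts of skeletal muscle fibres were 791297 in NC 1 and 289706 in NC 3, but 13641 in NC 2. They lay between 3244 and 18837 in PEG-fused PNAs, and were 43203 in Unop 1 and 7209 in Unop 2. Acta1, skeletal muscle actin, was 202480, 3635 and 76780 in NC 1 to NC 3. In the account of the study, muscle that adhered to the NC PNAs could not be fully trimmed away. Muscle is rich in glycolytic enzymes, so each call of a member against NC that depends on these libraries is also given without them. The NC arm is then the single library NC 2, whose spread is assumed to be that of the other groups, so a call kept or lost in that fit has no replicate behind it in NC.

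The cell makeup of the tissue also moved with the groups. Summed counts of 8 myelin transcripts were 2778490 and 3338960 in Unop, against 38524 to 47664 in PEG and 14523 to 67925 in NC. In each kind of PNA 8 of 8 were lower than in Unop (limma, adjusted p under 0.05), beside 28.6% of all tested genes in PEG and 32.3% in NC. The 10 macrophage transcripts summed to 23017 to 39072 in Unop, 109341 to 140232 in PEG and 192441 to 219945 in NC. Of these, 8 of 10 were lower in PEG than in NC, beside 13.9% of all tested genes. For 8 T cell transcripts the sums were 230 to 433 in Unop, 2614 to 6580 in PEG and 23288 to 42318 in NC, and for 8 cell cycle transcripts they were 694 to 830, 13634 to 15662 and 12582 to 14854. Adipocyte transcripts summed to 74189 to 117996 in Unop, 4041 to 5980 in PEG and 8798 to 10091 in NC. Perineurial transcripts, of which Lypd2 was at 0 in every library, summed to 78256 to 87467 in Unop, 7238 to 7549 in PEG and 4200 to 6832 in NC. Repair Schwann cell transcripts summed to 3718 to 4876 in Unop, 24021 to 30471 in PEG and 11134 to 12863 in NC. For 6 general Schwann cell transcripts the sums were 247330 to 249197, 41138 to 42207 and 17283 to 28186. Of these 6, 4 were higher and 1 lower in PEG than in NC, beside 15% and 13.9% of all tested genes. For fibroblast transcripts the sums were 370524 to 493591, 594156 to 876273 and 337837 to 512197. In bulk tissue, fewer cells of a type and less RNA per cell cannot be told apart. The part of these cell types in the results on members was not tested, beyond the muscle libraries.

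Glycolysis splits glucose into pyruvate in the cytosol, and lactate dehydrogenase converts pyruvate to lactate and back. Hexokinase, phosphofructokinase and pyruvate kinase catalyse its irreversible steps, and most steps have isozymes that are used by different tissues. In peripheral nerve, Schwann cells are thought to pass lactate to the axons they wrap, and activated macrophages and T cells are known for a high glycolytic rate. The polyol pathway reduces glucose to sorbitol with aldose reductase and oxidizes it to fructose, and in nerve it is best known for its part in diabetic neuropathy. The pentose phosphate pathway supplies NADPH and ribose.

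In PEG against NC, 16 of the 31 members were called, 14 lower and 2 higher in PEG, where 28.9% of all tested genes were called (13.9% lower and 15% higher). Hk3, Aldoa and Tpi1 were DEGs, all lower, where 11.5% of tested genes were DEGs, 7.14% lower and 4.41% higher. The median log2 fold change of the members was -0.37, beside 0.00 over all tested genes. In PEG against Unop, 23 members were called, 10 higher and 13 lower, with 57.7% of tested genes called (29.1% higher and 28.6% lower), and 6 higher and 7 lower members were DEGs, with 32.3% of tested genes DEGs (16.7% higher and 15.6% lower). In NC against Unop, 25 were called, 15 higher and 10 lower, with 64.5% of tested genes called (32.2% higher and 32.3% lower), and 9 higher and 5 lower members were DEGs, with 38.6% of tested genes DEGs (19.6% higher and 19% lower). Their medians were -0.48 and 0.38, beside 0.01 and 0.02 over all tested genes. The comparisons share libraries, so their values are given side by side and are not independent of each other.

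**Figure D1:**
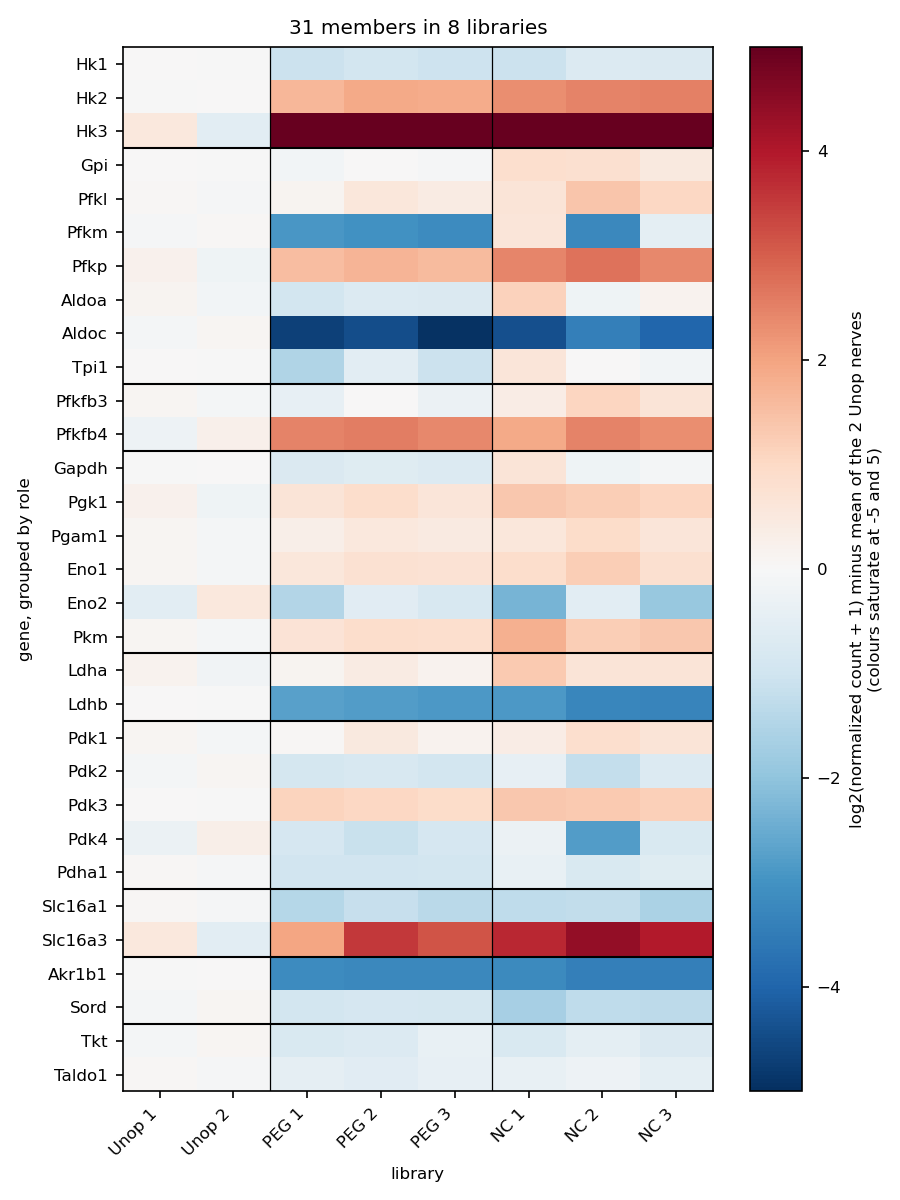
Difference of each library from the mean of the 2 Unop nerves on the log2(normalized read count + 1) scale, for 31 members (rows, grouped by role) in 8 libraries (columns). Hk3 and Slc16a3 are higher in all 6 PNAs and Aldoc, Ldhb and Akr1b1 lower, while Pfkm, Aldoa and Pdk4 differ among the NC libraries.

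Leaving out libraries lowered the count of members called in PEG against NC. Without NC 1 and NC 3, with NC 2 as the only NC library, it was 8, of which 6 were lower and 2 higher, with 19.9% of all tested genes called, and with the muscle transcripts as a covariate it was 6, all lower, with 14.8% of tested genes called. Both alternatives were chosen after the data were seen. Without PEG 1, PEG 2 or PEG 3 in turn, 6, 9 and 7 members were called, with 21.1%, 16.7% and 19% of tested genes called, and without NC 1, NC 2 or NC 3 it was 13, 13 and 12, with 26.3%, 23.2% and 22.2%. The share over all tested genes was thus also lower than 28.9% in each of these fits. It was not lower without Unop 1 or Unop 2, where 13 members were called in each fit, with 29.8% and 29.7% of tested genes called. With only the 2 groups compared in the fit, 12 members were called, with 29.6% of tested genes called. Hk2, Gpi, Pfkp and Pfkfb3 were called lower in PEG under all 19 alternatives, of which 1 has a single NC library. Against Unop, 18 of the 23 calls in PEG and 19 of the 25 calls in NC held under all 19.

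**Figure D2:**
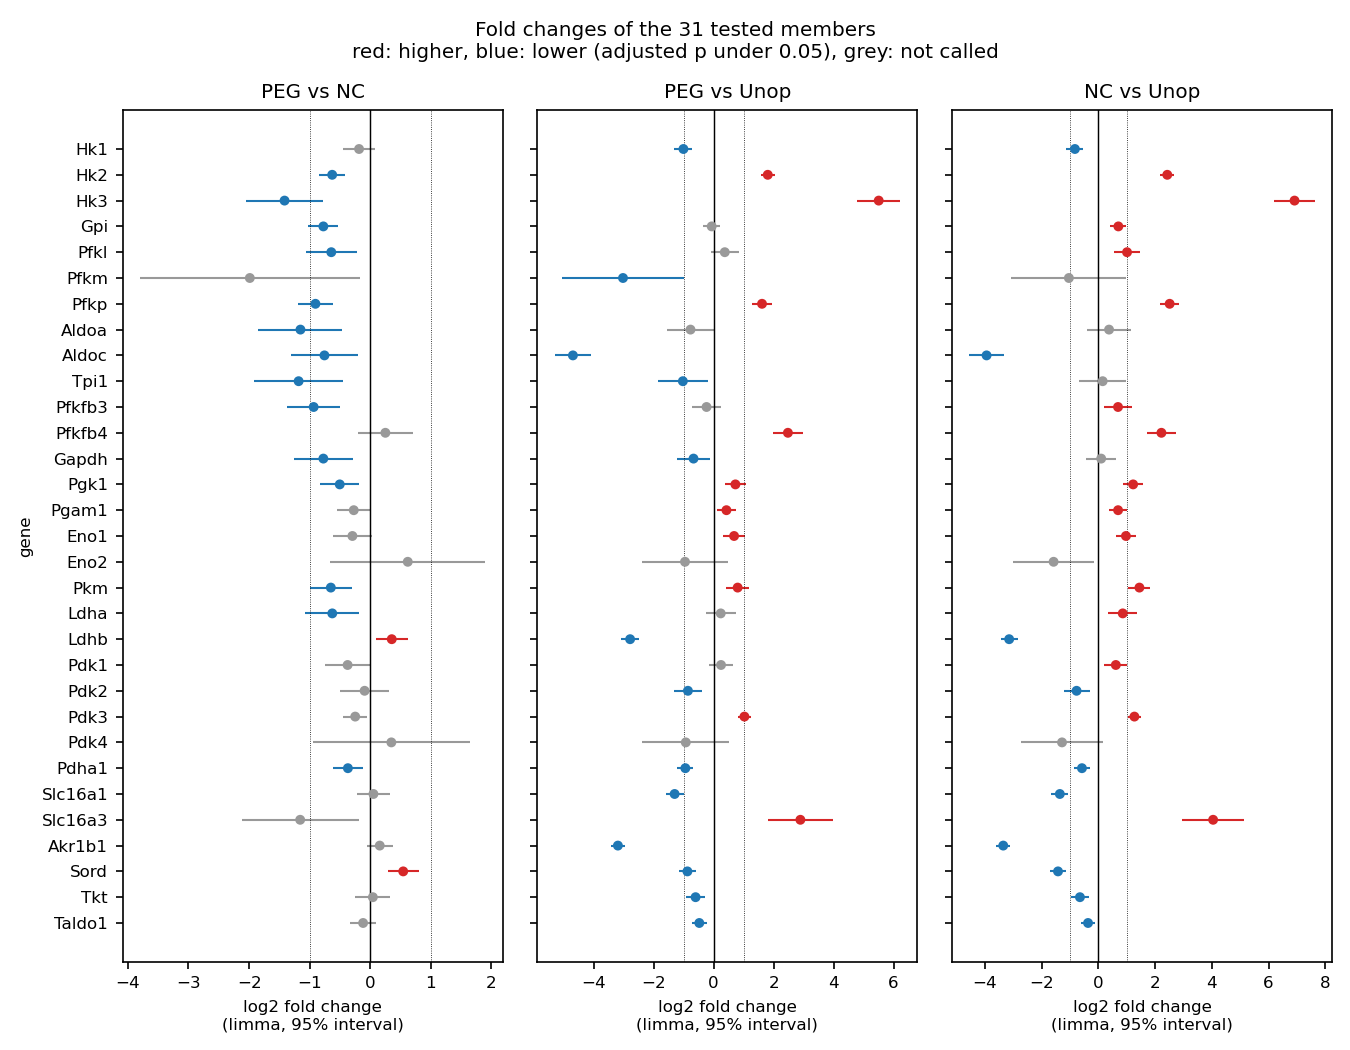
Log2 fold changes of the 31 members with 95% intervals from limma in the 3 comparisons (red higher, blue lower at an adjusted p under 0.05, grey not called). Most members lie left of 0 in PEG against NC, with a median of -0.37, and the largest changes are against Unop, with Hk3 at 5.50 in PEG and 6.92 in NC.

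Hexokinases add the first phosphate to glucose. Hk3, the isozyme of myeloid blood cells, was 90.1 and 43.8 in the 2 Unop nerves, 2516, 2369 and 4070 in PEG 1 to PEG 3, and 7290, 7856 and 8029 in NC 1 to NC 3. The 3 groups did not overlap. Hk3 was 45.3-fold higher in PEG than in Unop and 121-fold higher in NC than in Unop, with log2 fold changes of 5.50 ± 0.31 (SE; limma, adjusted p = 3.96e-06) and 6.92 ± 0.31 (limma, adjusted p = 1e-06). It was 2.67-fold lower in PEG than in NC (log2 fold change -1.41 ± 0.28, limma adjusted p = 0.00748), a call that was lost without NC 1 and NC 3 (-1.44, limma adjusted p = 0.0663). The sums of the macrophage and of the T cell transcripts ran in the same order over the groups. Those of 5 neutrophil transcripts did not, with 67.5 to 155 in Unop, 1909 to 3200 in PEG and 2211 to 2335 in NC, where PEG and NC overlapped. Of these 5, 2 were lower and 0 higher in PEG than in NC, and Mmp8 had the higher mean in PEG (1641, beside 527 in NC) and was not called. Of the 10 macrophage transcripts, 8 were lower in PEG than in NC, beside 13.9% of all tested genes. Cd68 had the higher mean in PEG (20979, beside 16470 in NC) and was not called. The part of these cells in Hk3 was not tested.

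Hk2, the inducible isozyme of muscle and growing cells, was 660 and 669 in Unop, 2104, 2504 and 2377 in PEG, and 3294, 3680 and 3815 in NC. Its log2 fold changes were 1.80 ± 0.11 in PEG (limma, adjusted p = 4.61e-06) and 2.43 ± 0.11 in NC (limma, adjusted p = 9.09e-07) against Unop, and -0.63 ± 0.09 in PEG against NC (limma, adjusted p = 0.00251). The NC libraries lay close together, with a value in NC 1 that was 0.895 of that in NC 2, so Hk2 did not follow the muscle transcripts. Hk1, the constitutive isozyme of nerve and brain, was 2604 and 2585 in Unop, 1244 to 1371 in PEG and 1222 to 1621 in NC. Hk1 was lower in both PNAs, by 2.01-fold in PEG (limma, adjusted p = 0.000275) and by 1.77-fold in NC (limma, adjusted p = 0.000659), and PEG and NC overlapped (limma, adjusted p = 0.268). Without NC 1, Hk1 was called lower in PEG than in NC (log2 fold change -0.31, limma adjusted p = 0.0326).

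The ratio of the normalized counts of Hk2 to those of Hk1 in a library was 0.254 and 0.259 in Unop, 1.69 to 1.90 in PEG and 2.27 to 2.69 in NC. For Hk3 to Hk1 it was 0.0346 and 0.0169 in Unop, 1.73 to 3.25 in PEG and 4.85 to 5.96 in NC. Counts were not divided by gene length, so a ratio between genes is read only for its change between groups, which is given with no test. On the log2 scale the ratio of Hk3 to Hk1 was 6.54 higher in PEG and 7.77 higher in NC than in Unop.

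Phosphofructokinase commits sugar to glycolysis, and its platelet, liver and muscle subunits are encoded by Pfkp, Pfkl and Pfkm. Pfkp was 481 and 360 in Unop, 1231, 1348 and 1245 in PEG, and 2259.9, 2703 and 2219.7 in NC, with no overlap of the groups. Its log2 fold change was 1.61 ± 0.14 in PEG (limma, adjusted p = 3.61e-05) and 2.52 ± 0.14 in NC (limma, adjusted p = 2.6e-06) against Unop, and -0.90 ± 0.13 in PEG against NC (limma, adjusted p = 0.00214). Pfkl was 1426 and 1318 in Unop, 1510, 2006 and 1839 in PEG, and 2146, 3557 and 2780 in NC. It was higher in NC than in Unop (log2 fold change 1.01, limma adjusted p = 0.0025) and lower in PEG than in NC (-0.64, limma adjusted p = 0.0318). That call was lost without PEG 1, PEG 2, PEG 3, NC 2 or NC 3, with adjusted p up to 0.0993 in limma, and held without NC 1 and NC 3.

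Pfkm behaved unlike the other subunits. It was 7680 and 8495 in Unop, 1076, 987 and 919 in PEG, and 12163, 871 and 5754 in NC 1 to NC 3. PEG lay 8.13-fold below Unop with no overlap (log2 fold change -3.02 ± 0.88, limma adjusted p = 0.0178). The call held under 17 of 19 alternatives and was lost without Unop 1 or Unop 2, where a single Unop library is left. The shared fit takes part of its spread from the NC libraries, which lay far apart for this gene. With 1 library left out at a time, the adjusted p in limma was as low as 6.17e-05. NC 2, with few muscle transcripts, lay just below the lowest PEG library, and NC 1 and NC 3 lay above all PEG libraries. The log2 fold change in PEG against NC was -1.99 ± 0.79 (limma, adjusted p = 0.0944), 0.19 without NC 1 and NC 3, and -3.07 without NC 2 (limma, adjusted p = 0.00109). In NC against Unop it was -1.04 (limma, adjusted p = 0.329), and -3.21 without NC 1 and NC 3 (limma, adjusted p = 2.64e-05). Among the Unop nerves, Pfkm was higher in Unop 2, which had the lower sum of muscle transcripts.

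Gpi, which turns glucose 6-phosphate into fructose 6-phosphate, was 9526 and 9047 in Unop, 8339, 9482 and 8811 in PEG, and 16448, 16122 and 13137 in NC. PEG overlapped with Unop (log2 fold change -0.07, limma adjusted p = 0.662, 95% interval -0.34 to 0.21). PEG lay 1.71-fold below NC (log2 fold change -0.77 ± 0.11, limma adjusted p = 0.00201), and NC 1.63-fold above Unop (limma, adjusted p = 0.00104).

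Aldolase cleaves fructose 1,6-bisphosphate. Aldoc, the isozyme known from brain, was 6351 and 7318 in Unop, 264, 313 and 219 in PEG, and 321, 629 and 433 in NC. It was 25.9-fold lower in PEG (log2 fold change -4.69 ± 0.27, limma adjusted p = 4e-06) and 15.3-fold lower in NC (-3.94 ± 0.27, limma adjusted p = 5.6e-06) than in Unop. PEG was also below NC (log2 fold change -0.76 ± 0.24, limma adjusted p = 0.0454), a call that was lost without PEG 1, PEG 2, PEG 3, NC 2, NC 3 or either Unop nerve, with adjusted p up to 0.139 in limma. The ratio of Aldoc to Aldoa was 0.148 and 0.204 in Unop and at most 0.0184 in any PNA.

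Aldoa, the isozyme of muscle and most other tissues, was 42952 and 35794 in Unop, 20720, 24480 and 23817 in PEG, and 86631, 34130 and 44837 in NC. The highest value was that of NC 1, 2.54-fold above NC 2. PEG lay below all other libraries, by 2.22-fold against NC (log2 fold change -1.15 ± 0.30, limma adjusted p = 0.0237), and against Unop the log2 fold change was -0.77 ± 0.34 (limma, adjusted p = 0.0807). Under 5 of 19 alternatives PEG was called lower than Unop. Among these were the fit of only the 2 groups (limma, adjusted p = 0.00394) and DESeq2 (adjusted p = 0.0327). So were the fits without NC 1 or NC 2 (limma, adjusted p = 0.00483 and 0.0373). Against NC the call was lost without NC 1 and NC 3 (log2 fold change -0.57, limma adjusted p = 0.0745), and without PEG 1, PEG 2 or PEG 3, with adjusted p up to 0.0712 in limma. Tpi1, triose phosphate isomerase, had only 19.5 to 87.6 normalized counts in any library and is uncertain. Reads may be shared with near-identical copies, which was not tested. A second row described as like it, LOC100911515, had 15.8 to 95.1. Tpi1 was 19.5, 40.2 and 27.2 in PEG and 87.6, 58.1 and 52.1 in NC (log2 fold change -1.18, limma adjusted p = 0.0271), and the call was lost without PEG 1, PEG 3 or NC 1, with adjusted p up to 0.0816 in limma, and without NC 1 and NC 3 together, where the log2 fold change was -1.04 against the single library NC 2 (limma, adjusted p = 0.152). It was also lower in PEG than in Unop, with 59.0 and 56.3 (limma, adjusted p = 0.0371), a call lost without PEG 1, PEG 3 or either Unop nerve (limma, adjusted p up to 0.128).

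Pfkfb3 and Pfkfb4 make and break fructose 2,6-bisphosphate, the strongest activator of phosphofructokinase. Pfkfb3 was 1835 and 1570 in Unop, 1268, 1706 and 1376 in PEG, and 2168, 3592 and 2668 in NC. It was 1.91-fold lower in PEG than in NC (log2 fold change -0.93 ± 0.19, limma adjusted p = 0.00842) and higher in NC than in Unop (0.70, limma adjusted p = 0.0189), a call lost without Unop 2 (limma, adjusted p = 0.119). PEG overlapped with Unop (log2 fold change -0.24, 95% interval -0.72 to 0.25). Pfkfb4 was 64.4 and 92.6 in Unop, 431, 460 and 412 in PEG, and 287, 436 and 388 in NC. It was 5.56-fold higher in PEG and 4.67-fold higher in NC than in Unop (limma, adjusted p = 3.65e-05 and 4.52e-05). PEG and NC overlapped (log2 fold change 0.25, limma adjusted p = 0.375), so the 2 genes of this pair differed in where PEG lay.

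**Figure D3:**
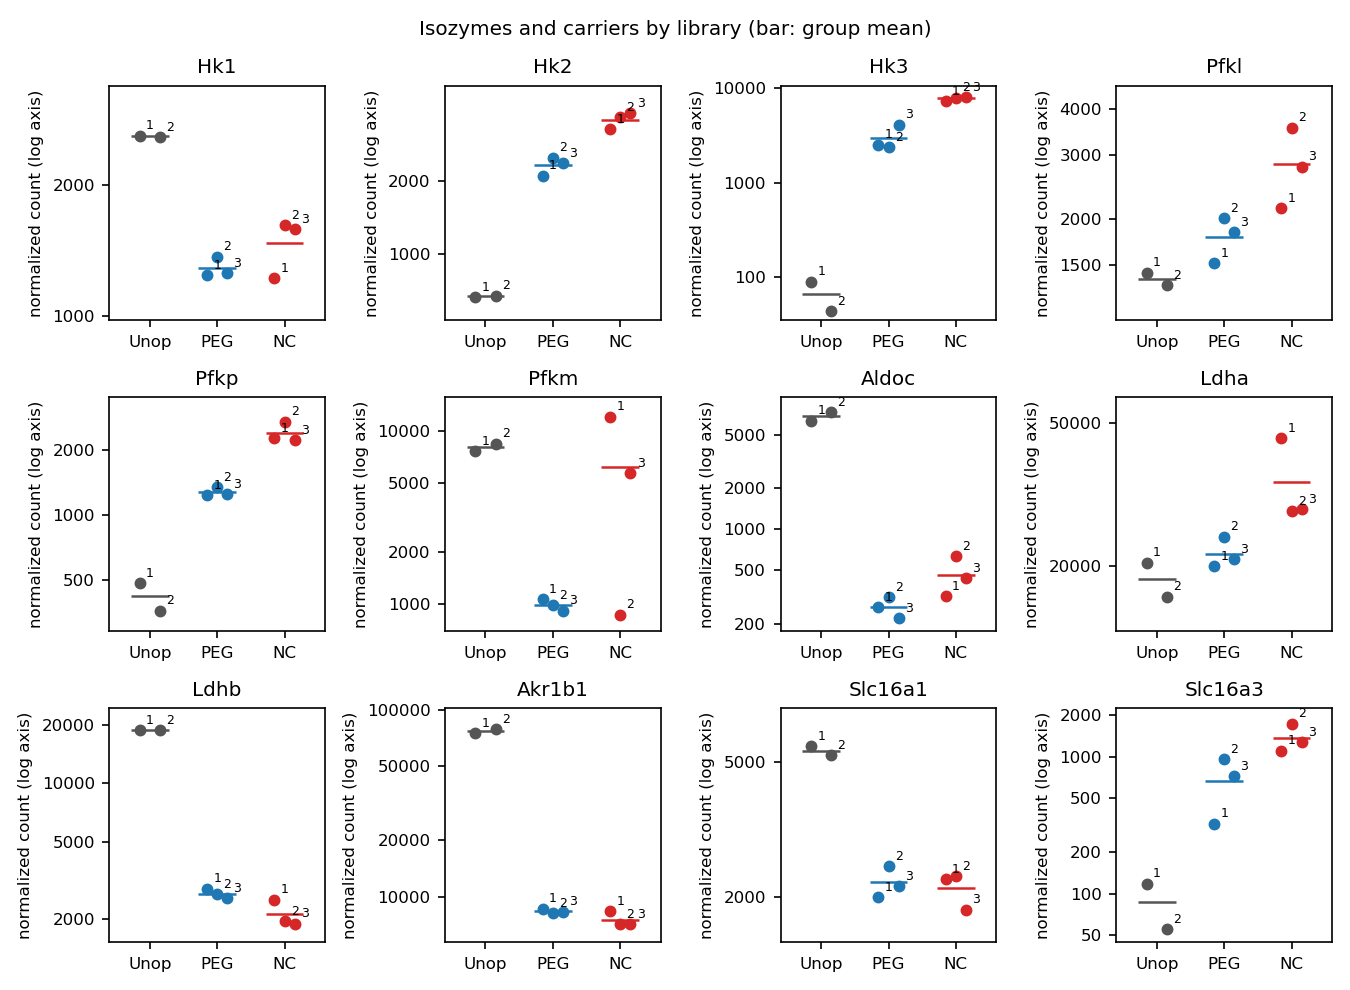
Normalized read counts (log axes, which differ in range between panels) of 12 isozymes and carriers in each library, numbered by replicate, with a bar at the group mean. Hk3, Pfkp and Slc16a3 are lowest in Unop and highest in NC, Aldoc, Ldhb and Akr1b1 are highest in Unop, and NC 2 lies just below PEG for Pfkm.

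Lower glycolysis turns triose phosphates into pyruvate with a gain of ATP. Pgk1, phosphoglycerate kinase, was 10482 and 7745 in Unop, 14159, 16786 and 13893 in PEG, and 23106, 21293 and 19109 in NC. It was higher than Unop in PEG (log2 fold change 0.72, limma adjusted p = 0.00447) and in NC (1.23, limma adjusted p = 0.000199), and lower in PEG than in NC (-0.50, limma adjusted p = 0.0307). Pkm, pyruvate kinase, was 10971 and 9597 in Unop, 16333, 19068 and 18280 in PEG, and 34988, 24259 and 25938 in NC. Its log2 fold changes were 0.80 in PEG (limma, adjusted p = 0.00371) and 1.45 in NC (limma, adjusted p = 0.000108) against Unop, and -0.65 in PEG against NC (limma, adjusted p = 0.0145). Neither gene was called in PEG against NC without NC 1 and NC 3 (log2 fold changes of -0.52 and -0.44, limma adjusted p = 0.127 and 0.0901). The call of Pgk1 was also lost without PEG 1, PEG 3, NC 1 or NC 2, with adjusted p up to 0.103 in limma, and that of Pkm without PEG 1 (limma, adjusted p = 0.0518). Reads of Pkm may be shared with AABR07044711.1, a row described as like it, which had 4836 to 5203 counts in PEG and 6794 to 9200 in NC (log2 fold change -0.64, limma adjusted p = 0.01).

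Eno1, the general enolase, was 14661 and 12467 in Unop, 19776, 23030 and 22312 in PEG, and 24535, 32023 and 23855 in NC. Pgam1, phosphoglycerate mutase, was 9033 and 7837 in Unop, 10309 to 12088 in PEG and 12563 to 15716 in NC. Both were higher than Unop in PEG (log2 fold changes 0.68 and 0.43, limma adjusted p = 0.00599 and 0.0234) and in NC (0.97 and 0.70, limma adjusted p = 0.000739 and 0.00184). Without Unop 2, neither was called in PEG against Unop, with adjusted p up to 0.0507 and 0.141 in limma, and Pgam1 was not called without PEG 2 or PEG 3 either. In PEG against NC their log2 fold changes were -0.29 and -0.27 (limma, adjusted p = 0.152 and 0.121). Eno2, the enolase of neurons, had 2.68 to 25.0 counts in any library and was not called in any comparison.

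Gapdh, the enzyme that makes NADH in glycolysis, is often used as a reference gene, as it was in the RT-qPCR of the study. It was 45713 and 46276 in Unop, 28111, 29978 and 28534 in PEG, and 71195, 39738 and 42489 in NC. PEG lay below all other libraries, by 1.59-fold against Unop (log2 fold change -0.67 ± 0.23, limma adjusted p = 0.037) and by 1.71-fold against NC (-0.77 ± 0.21, limma adjusted p = 0.0269). The call against Unop was lost without PEG 1, PEG 2, PEG 3, Unop 1 or Unop 2 (limma, adjusted p up to 0.126), and the call against NC was lost without any PEG library (adjusted p up to 0.0786) or without NC 1 and NC 3 (log2 fold change -0.46, limma adjusted p = 0.082). Its value in NC 1 was 1.79-fold that in NC 2. LOC108351137, described as like Gapdh, was 6837 to 7339 in PEG, 10431 to 17579 in NC and 12275 to 12355 in Unop, with a log2 fold change of -0.82 in PEG against NC (limma, adjusted p = 0.0135), so reads may be shared between the rows.

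Lactate dehydrogenase is built of subunits from Ldha, which dominates in muscle and favours lactate, and Ldhb, which dominates in heart and favours pyruvate. Ldhb was 18701 and 18645 in Unop, 2874, 2686 and 2565 in PEG, and 2528, 1965 and 1903 in NC. It was 6.90-fold lower in PEG (log2 fold change -2.79 ± 0.13, limma adjusted p = 1.83e-06) and 8.83-fold lower in NC (-3.14 ± 0.13, limma adjusted p = 8.17e-07) than in Unop. PEG was above NC by a log2 fold change of 0.36 ± 0.12 (limma, adjusted p = 0.0497), a call at the edge of the threshold that was lost without PEG 1, PEG 2, PEG 3, NC 2, NC 3 or either Unop nerve, with adjusted p up to 0.144 in limma.

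Ldha was 20499 and 16490 in Unop, 20018, 24196 and 20912 in PEG, and 45451, 28450 and 28830 in NC. It was higher in NC than in Unop (log2 fold change 0.86, limma adjusted p = 0.00825), a call lost without Unop 2 (limma, adjusted p = 0.0706). PEG was below NC (log2 fold change -0.63, limma adjusted p = 0.0443), which was lost without PEG 1, PEG 2, PEG 3, NC 1 or either Unop nerve (limma, adjusted p up to 0.121) and without NC 1 and NC 3 (log2 fold change -0.39, limma adjusted p = 0.185). PEG overlapped with Unop (log2 fold change 0.23, 95% interval -0.27 to 0.74). The ratio of Ldhb to Ldha was 0.912 and 1.13 in Unop, 0.111 to 0.144 in PEG, and 0.0556 to 0.0691 in NC, with no overlap of the 3 groups. On the log2 scale its difference was -3.02 in PEG against Unop, -4.00 in NC against Unop and 0.98 in PEG against NC. RGD1562690, a row described as like Ldha, had 350.4 to 430.0 counts in PEG and 499 to 750 in NC.

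Promoters of the lactate dehydrogenase genes and of Pfkfb3 are shown because these genes lay on different sides of the groups and because many glycolytic promoters hold the core of the hypoxia response element. The windows are the 250 bases before the RefSeq start of the gene in the GRCr8 assembly, on the strand of the gene, with each match of ACGTG on either strand in capitals, overlapping matches and the 6 bases of CACGTG included. The build differs from that of the deposited values, so the windows are matched to them by gene symbol only. Ldha lies at chr1:106507842-106508091 on the plus strand, Ldhb at chr4:177177409-177177658 on the minus strand and Pfkfb3 at chr17:71944683-71944932 on the plus strand.
Ldha: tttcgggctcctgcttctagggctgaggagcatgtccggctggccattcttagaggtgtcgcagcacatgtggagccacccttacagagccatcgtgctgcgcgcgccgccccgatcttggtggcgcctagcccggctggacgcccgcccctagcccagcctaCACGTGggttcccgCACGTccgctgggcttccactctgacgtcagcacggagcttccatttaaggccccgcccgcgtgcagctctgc
Ldhb: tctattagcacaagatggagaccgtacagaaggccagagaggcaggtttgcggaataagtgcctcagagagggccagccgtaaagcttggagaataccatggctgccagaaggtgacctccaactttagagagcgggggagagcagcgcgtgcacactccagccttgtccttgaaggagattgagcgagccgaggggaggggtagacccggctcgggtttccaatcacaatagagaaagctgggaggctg
Pfkfb3: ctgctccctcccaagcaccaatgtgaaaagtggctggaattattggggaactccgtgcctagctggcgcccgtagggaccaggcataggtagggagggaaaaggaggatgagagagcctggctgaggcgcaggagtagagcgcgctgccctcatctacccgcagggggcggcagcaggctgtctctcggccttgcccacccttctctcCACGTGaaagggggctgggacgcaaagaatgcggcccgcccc

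The Ldha window held 3 matches of ACGTG, 2 of them from 1 CACGTG read on both strands. Pfkfb3 held 2 matches from 1 CACGTG, and Ldhb held none. The windows of Hk2, Gpi, Pfkp and Pkm, which were higher in NC than in Unop, also held none. Those of Slc16a1 and Pdk2, lower in both PNAs than in Unop, each held 2 matches. Windows with and without a match thus occurred on both sides of Unop. Of 33 windows found for 29 members, 13 held ACGTG, 39.4%, beside 16.6% of all 33469 windows and 20.4% of the 12678 windows of tested genes. CACGTG was found in 12.1% of the windows of members, 5.59% of all windows and 7.46% of those of tested genes. A match of these letters is a description and not a site of binding, and no factor was measured on these windows.

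Pyruvate dehydrogenase passes pyruvate into the mitochondrial citrate cycle, and its kinases Pdk1 to Pdk4 switch it off. Pdha1, its E1 subunit, was 5526 and 5157 in Unop, 2747, 2779 and 2793 in PEG, and 4142, 3119 and 3555 in NC. It was 1.92-fold lower in PEG (limma, adjusted p = 0.000228) and 1.49-fold lower in NC (limma, adjusted p = 0.00278) than in Unop. The log2 fold change in PEG against NC was -0.37 (limma, adjusted p = 0.033), and the call was lost without PEG 1, PEG 2, PEG 3, NC 1 or NC 3 (limma, adjusted p up to 0.0928) and without NC 1 and NC 3 together (log2 fold change -0.17, limma adjusted p = 0.288).

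Pdk3 was 683 and 655 in Unop, 1272 to 1462 in PEG and 1516 to 1684 in NC, and it was higher in PEG (log2 fold change 1.02, limma adjusted p = 5.15e-05) and in NC (1.27, limma adjusted p = 1.08e-05) than in Unop. Pdk2 was 1178 and 1317 in Unop, 664 to 719 in PEG and 546 to 928 in NC, and it was lower in both (log2 fold changes -0.86 and -0.77, limma adjusted p = 0.00602 and 0.00917). The call of Pdk2 in NC was lost without Unop 2 (limma, adjusted p = 0.0642). Pdk1 was higher in NC than in Unop (log2 fold change 0.62, limma adjusted p = 0.0152), a call lost without Unop 2 (limma, adjusted p = 0.0969). Pdk4, a kinase of fasting muscle and fat, was 449 and 668 in Unop, 309, 251 and 304 in PEG, and 450, 77.5 and 325 in NC, and was not called in any comparison. Without NC 1 and NC 3 its log2 fold change in PEG against NC was 1.88 (limma, adjusted p = 0.00944), which rests on NC 2 alone. Pdk4 was also called lower in NC than in Unop without NC 1 (log2 fold change -1.78, limma adjusted p = 0.0272) and lower in PEG than in Unop without NC 2 (-0.93, limma adjusted p = 0.00795). Pdk3 and Pdk2 thus lay on opposite sides of Unop in both PNAs, and the ratio of Pdk3 to Pdk2 was 0.498 to 0.579 in Unop, 1.89 to 2.16 in PEG and 1.81 to 3.03 in NC.

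Monocarboxylate carriers move lactate across membranes. Slc16a1 (MCT1), the carrier of Schwann and perineurial cells, was 5565 and 5258 in Unop, 1990, 2462 and 2152 in PEG, and 2253, 2294 and 1828 in NC. It was 2.47-fold lower in PEG (log2 fold change -1.30 ± 0.13, limma adjusted p = 6.55e-05) and 2.56-fold lower in NC (-1.36 ± 0.13, limma adjusted p = 3.62e-05) than in Unop, and PEG and NC overlapped (95% interval of the log2 fold change -0.21 to 0.32). Slc16a3 (MCT4), the exporter of glycolytic cells, was 118 and 55.0 in Unop, 323, 954 and 717 in PEG, and 1105, 1737 and 1280 in NC. It was 7.42-fold higher in PEG (log2 fold change 2.89 ± 0.47, limma adjusted p = 0.000989) and 16.5-fold higher in NC (4.05 ± 0.47, limma adjusted p = 0.000112) than in Unop. All PEG libraries lay below all NC libraries, and the log2 fold change of -1.16 ± 0.42 was not called (limma, adjusted p = 0.0732), with an adjusted p of 0.0225 in DESeq2. The ratio of Slc16a3 to Slc16a1 was 0.0212 and 0.0105 in Unop, 0.163 to 0.387 in PEG and 0.490 to 0.758 in NC.

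Both enzymes of the polyol pathway were lower in the PNAs than in Unop. Akr1b1, aldose reductase, was 74534 and 78448 in Unop, 8629, 8150 and 8299 in PEG, and 8331, 7108 and 7112 in NC. It was 9.15-fold lower in PEG (log2 fold change -3.19 ± 0.11, limma adjusted p = 9.14e-07) and 10.2-fold lower in NC (-3.35 ± 0.11, limma adjusted p = 5.21e-07) than in Unop. PEG and NC overlapped (log2 fold change 0.16, limma adjusted p = 0.241, 95% interval -0.06 to 0.37). Sord, sorbitol dehydrogenase, was 3532 and 4001 in Unop, 2010, 2076 and 2057 in PEG, and 1189, 1550 and 1502 in NC. It was 1.84-fold lower in PEG (limma, adjusted p = 0.000488) and 2.68-fold lower in NC (limma, adjusted p = 2.31e-05) than in Unop, and 1.46-fold higher in PEG than in NC (log2 fold change 0.54 ± 0.11, limma adjusted p = 0.00914). That call held without each library in turn and was lost without NC 1 and NC 3 together (log2 fold change 0.40, limma adjusted p = 0.0546). The myelin, adipocyte and perineurial sums were also highest in Unop, and their part in these values was not tested.

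Transketolase (Tkt) and transaldolase (Taldo1) rearrange sugars in the non-oxidative arm of the pentose phosphate pathway. Tkt was 17666 and 19919 in Unop, 11105, 11821 and 14332 in PEG, and 11210, 13412 and 11438 in NC, and it was lower in PEG (log2 fold change -0.60, limma adjusted p = 0.00614) and in NC (-0.65, limma adjusted p = 0.00371) than in Unop. Taldo1 was 14825 and 13784 in Unop, 9645 to 10683 in PEG and 10205 to 12151 in NC, and it was lower in PEG (-0.48, limma adjusted p = 0.00484) and in NC (-0.36, limma adjusted p = 0.0163). The call of Taldo1 in NC was lost without Unop 1 (limma, adjusted p = 0.0808), and without NC 1 and NC 3 together neither gene was called in NC against Unop (limma, adjusted p = 0.0674 for Tkt and 0.180 for Taldo1). Neither gene was called in PEG against NC, with 95% intervals of the log2 fold change of -0.24 to 0.33 for Tkt and -0.34 to 0.10 for Taldo1.

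**Figure D4:**
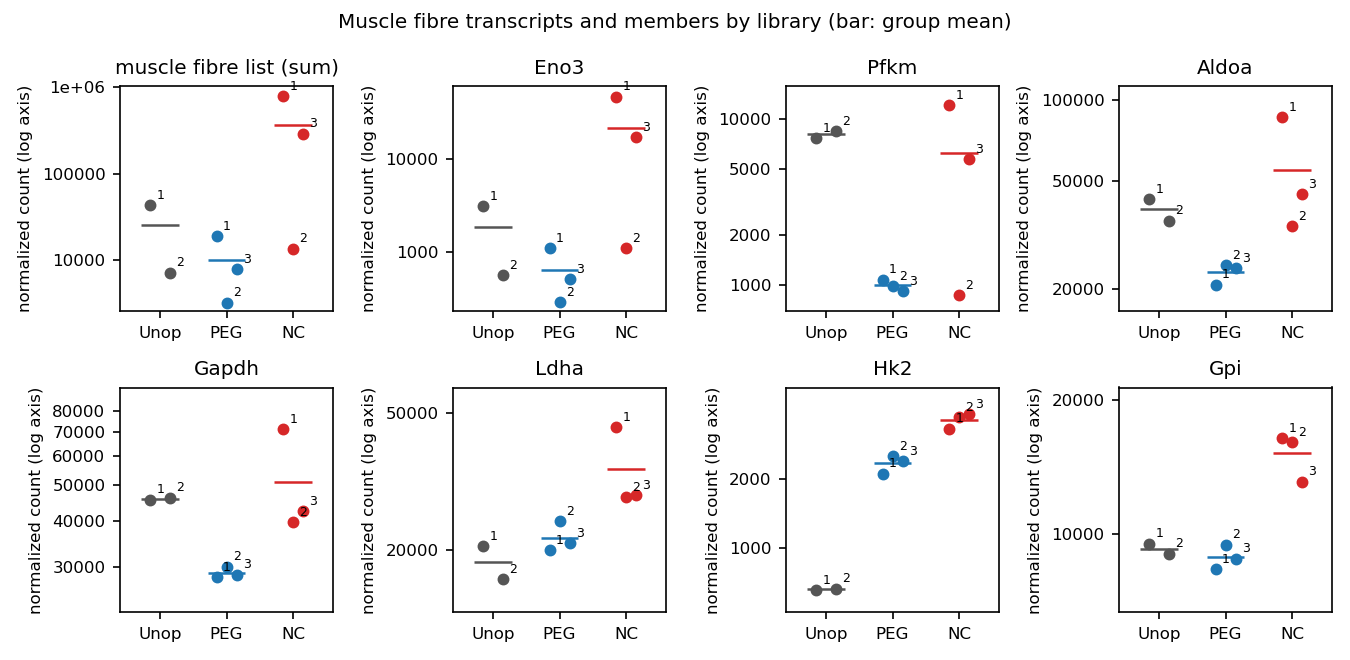
Normalized read counts (log axes) of the summed muscle fibre list and of 7 genes in each library, numbered by replicate, with a bar at the group mean. NC 1 stands highest for the muscle sum (791297), Eno3 (47220), Pfkm (12163), Aldoa (86631), Gapdh (71195) and Ldha (45451), while the NC libraries lie within 3294 to 3815 for Hk2.

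The plot of muscle transcripts sets members beside them in the NC libraries. NC 1 exceeded NC 2 by 58-fold in the muscle sum, 14-fold in Pfkm, 5.81-fold in Pdk4, 2.54-fold in Aldoa, 1.79-fold in Gapdh, 1.70-fold in Pdk2, 1.60-fold in Ldha, 1.51-fold in Tpi1, 1.44-fold in Pkm and 1.33-fold in Pdha1. NC 3 exceeded NC 2 by 21.2-fold in the muscle sum, 6.60-fold in Pfkm, 4.20-fold in Pdk4, 1.42-fold in Pdk2, 1.31-fold in Aldoa and 1.14-fold in Pdha1, but was 1.07 of NC 2 in Gapdh and Pkm, 1.01 in Ldha and 0.897 in Tpi1. Pfkm, Pdk4, Pdk2, Aldoa and Pdha1 were thus higher in both muscle-rich libraries than in NC 2, and Gapdh, Pkm, Ldha and Tpi1 stood out in NC 1. The NC libraries differed in more than muscle. NC 1 was 3.53-fold NC 2 in the myelin sum, 1.54-fold in the perineurial, 1.43-fold in the general Schwann cell and 0.550 of it in the T cell sum. Other sums lay between 0.836 (fibroblast) and 1.41 (B and plasma cell). Leaving out NC 1 and NC 3 keeps the NC library with the highest T cell sum, 42318. The part of these differences was not tested. For Hk3, Pfkp, Slc16a3, Pfkl and Pfkfb3, NC 1 was 0.928, 0.836, 0.636, 0.603 and 0.604 of NC 2. Without NC 1 and NC 3, the members still called in PEG against NC were Aldoc, Gpi, Hk2, Pfkfb3, Pfkl and Pfkp, which were lower, and Ldhb, which was higher, and Pdk4 was newly called higher. With the muscle covariate the same 6 were lower and no member was higher, and the log2 fold change of Hk3 was -1.21 (limma, adjusted p = 0.082).

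Outside the members, 100 further genes of these pathways were listed, of which 94 had a row and 88 were tested. In PEG against NC, 27 were called, 9 higher and 18 lower, 30.7% beside 28.9% of all tested genes. Against Unop, 48 were called in PEG and 48 in NC, 54.5% in each, beside 57.7% and 64.5% of all tested genes. Leaving out PEG 1, PEG 2, PEG 3 or NC 3 lowered the count of 27 to 15, 11, 13 and 18, while the share of all tested genes called was 21.1%, 16.7%, 19% and 22.2%, and leaving out NC 1 and NC 3 together lowered it to 13, with 19.9% of all tested genes called. The lists were chosen by role and are taken in turn. Beside the count of each list in PEG against NC stand 15% of all tested genes called higher and 13.9% called lower.

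Of 19 other tested genes of glycolysis and gluconeogenesis, 3 were higher and 3 lower in PEG than in NC. Pgam2 and Eno3, the muscle forms of phosphoglycerate mutase and enolase, were 13400 and 47220 in NC 1 but 345 and 1090 in NC 2, and their calls (log2 fold changes -3.69 and -4.15, limma adjusted p = 0.0434 and 0.0444) ran with the muscle transcripts and were lost without NC 1 and NC 3 (limma, adjusted p = 0.438 and 0.525) and without any single library but NC 2. Pck2, the mitochondrial enzyme that makes phosphoenolpyruvate, was 1010, 1255 and 927 in PEG and 710, 583 and 681 in NC (log2 fold change 0.69, limma adjusted p = 0.0108). Pck1, the cytosolic form known from fat and liver, was 4570 and 4027 in Unop and at most 24.1 in any PNA, and its log2 fold changes were -9.20 in PEG and -7.60 in NC against Unop (limma, adjusted p = 2.1e-06 and 2.95e-06), beside the adipocyte transcripts that ran in the same direction. Eno4 (log2 fold change 1.17, limma adjusted p = 0.0072) and Adpgk, an ADP-dependent glucokinase (0.25, limma adjusted p = 0.0398), were also higher in PEG than in NC. The call of Adpgk was lost without any single PEG or NC library (limma, adjusted p up to 0.137).

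Of 10 other genes of the pentose phosphate pathway and fructose use, 1 was higher and 2 lower in PEG than in NC. Akr1b8, an aldose reductase-like enzyme, was 267 and 201 in Unop, 1074, 1239 and 1376 in PEG, and 532, 784 and 723 in NC, and so lay on the opposite side from Akr1b1. Its log2 fold changes were 2.39 in PEG and 1.53 in NC against Unop (limma, adjusted p = 2.63e-05 and 0.00023) and 0.87 in PEG against NC (limma, adjusted p = 0.00945), the last of which was lost without NC 1 and NC 3 (0.64, limma adjusted p = 0.0816). Rpia, ribose 5-phosphate isomerase, and Khk, fructokinase, were lower in PEG than in NC (log2 fold changes -0.42 and -0.57, limma adjusted p = 0.0393 and 0.049). Both calls were lost without any single PEG library or without NC 2, that of Rpia also without NC 1 and that of Khk also without NC 3, with adjusted p up to 0.130 and 0.159 in limma. Rpe, ribulose-phosphate epimerase, was higher in NC than in Unop (log2 fold change 0.27, limma adjusted p = 0.0484), a call lost without any single library but NC 3 (limma, adjusted p up to 0.177).

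Of 10 other genes of pyruvate entry into mitochondria, 1 was higher and 1 lower in PEG than in NC. In each kind of PNA 6 were lower than in Unop, where 28.6% of all tested genes were lower in PEG and 32.3% in NC. Pc, pyruvate carboxylase, was 4331 and 2529 in Unop, 1307, 1453 and 1280 in PEG, and 763, 830 and 764 in NC, and was higher in PEG than in NC (log2 fold change 0.77, limma adjusted p = 0.0137). Pdhx, a structural part of the pyruvate dehydrogenase complex, was 1051, 901 and 1112 in PEG and 1530, 1434 and 1577 in NC (log2 fold change -0.57, limma adjusted p = 0.00542). Neither was called without NC 1 and NC 3 (limma, adjusted p = 0.127 for Pc and 0.0725 for Pdhx), and Pc was not called without PEG 2 (limma, adjusted p = 0.0555). Pdhb, the other E1 subunit, and Pdp2, a phosphatase that switches the complex on, were lower in PEG than in Unop (log2 fold changes -0.75 and -0.68, limma adjusted p = 0.00115 and 0.00237). Among 13 glucose and lactate carriers, Slc2a10 and Slc2a13 were higher in PEG than in NC (log2 fold changes 0.92 and 0.74, limma adjusted p = 0.0109 and 0.0209) and none was lower. Both calls were lost without NC 1 and NC 3 (limma, adjusted p = 0.0913 and 0.0556), and that of Slc2a13 without PEG 2, PEG 3 or NC 2. Against Unop, Slc2a9 and Emb, a partner protein of lactate carriers, were higher in both PNAs, with Emb at 129 and 57.5 in Unop, 1371 to 1876 in PEG and 605 to 983 in NC. Slc2a1 (GLUT1), the main glucose carrier of the nerve barrier, and Bsg, the partner of MCT1, were chosen after their values were seen. Slc2a1 was 11646 and 10749 in Unop, 2401 to 3103 in PEG and 2363 to 4241 in NC (log2 fold changes -2.08 and -1.96, limma adjusted p = 0.000172 and 0.000176), and Bsg was 38556 and 32430 in Unop, 11107 to 13923 in PEG and 9777 to 10832 in NC (-1.55 and -1.78, limma adjusted p = 2.95e-05 and 9.68e-06).

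Of 14 genes of glycogen metabolism, 1 was higher and 4 lower in PEG than in NC. Gys1, glycogen synthase of muscle and most tissues, was 504 and 427 in Unop, 484, 725 and 557 in PEG, and 1785, 1156 and 1566 in NC (log2 fold change -1.35, limma adjusted p = 0.00231). It was above all PEG libraries also in NC 2, which had few muscle transcripts. Pygb, a glycogen phosphorylase, was higher (log2 fold change 0.41, limma adjusted p = 0.014) and Phkg2 lower (-0.57, limma adjusted p = 0.0175) in PEG than in NC. Both calls were lost without PEG 2 (limma, adjusted p = 0.0604 and 0.0694), that of Phkg2 also without PEG 3 (limma, adjusted p = 0.0503), and that of Pygb also without NC 1 and NC 3 (limma, adjusted p = 0.0663). Gys2, the form of liver and fat, was 358 and 265 in Unop and at most 11.6 in any PNA.

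Of 22 tested regulators and hypoxia-response genes, 1 was higher and 8 lower in PEG than in NC, 40.9% called beside 28.9% of all tested genes. Hif1a, which raises transcription of many glycolytic genes in hypoxia, was 3699 and 3655 in Unop, 6350, 6449 and 5961 in PEG, and 7163, 9055 and 9750 in NC (PEG against NC -0.46, limma adjusted p = 0.021). Epas1, its relative of vessels and perivascular cells, ran the opposite way, with 11892 and 11604 in Unop, 5231, 4773 and 5545 in PEG, and 2908, 2348 and 2931 in NC (log2 fold change 0.93, limma adjusted p = 0.00102). Egln3, a prolyl hydroxylase that is itself induced by hypoxia, was 880 and 687 in Unop, 126, 188 and 144 in PEG, and 496, 679 and 643 in NC. Its log2 fold change in PEG was -1.99 against NC and -2.36 against Unop (limma, adjusted p = 0.000624 and 4.16e-05), so Egln3 set PEG apart from both other groups. Txnip, which restrains glucose uptake, and Ddit4, an inhibitor of mTORC1, were lower in PEG than in NC too (log2 fold changes -0.51 and -1.05, limma adjusted p = 0.0161 and 0.0335). The call of Hif1a was lost without any single PEG library, NC 2 or NC 3 (limma, adjusted p up to 0.0749), that of Txnip without PEG 2 (limma, adjusted p = 0.0669), and that of Ddit4 without PEG 1, PEG 2, NC 2, NC 3 or either Unop nerve (limma, adjusted p up to 0.0860). All 5 of these genes were also called against the single library NC 2.

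**Figure D5:**
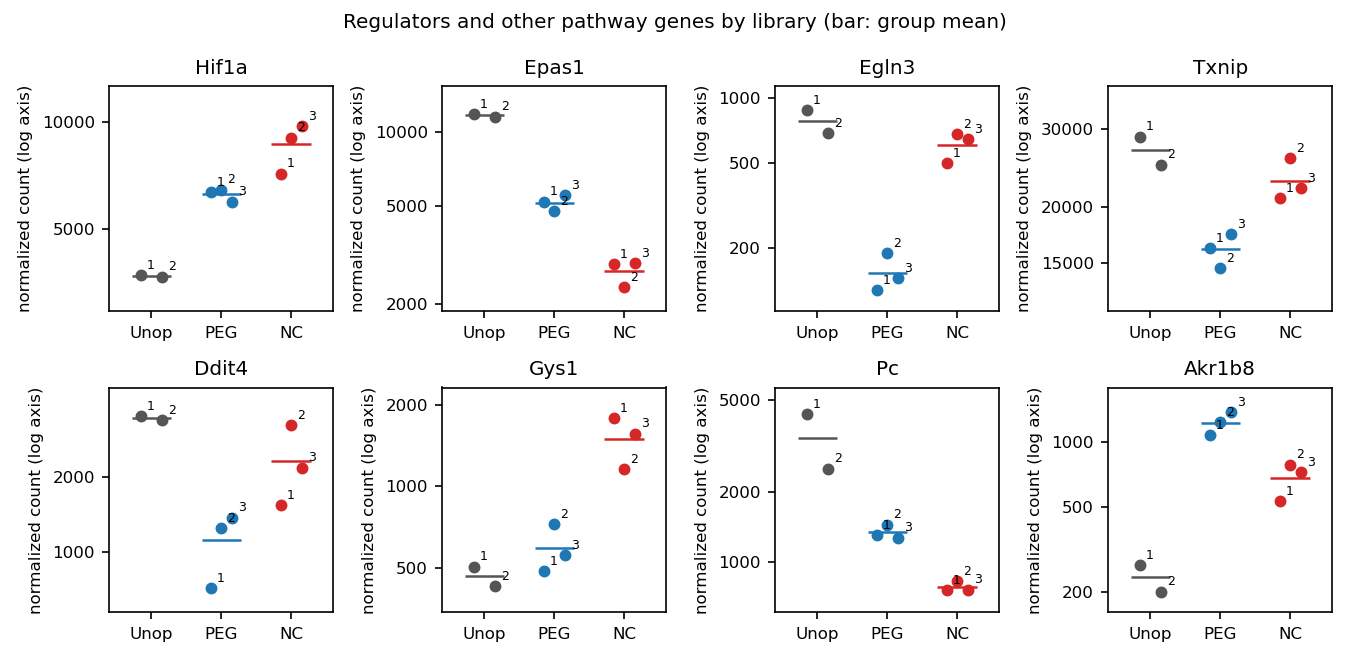
Normalized read counts (log axes) of 8 regulators and further pathway genes in each library, numbered by replicate, with a bar at the group mean. Hif1a and Gys1 are highest in NC and Epas1 and Pc in Unop, Egln3 is lowest in PEG (126 to 188), and Akr1b8 is highest there (1074 to 1376).

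Ndrg1, a hypoxia-response gene that is also a gene of myelinating Schwann cells, was chosen after its values were seen. It was 123365 and 142811 in Unop, 6890 to 9614 in PEG and 6167 to 8107 in NC (log2 fold changes of -4.10 and -4.22 against Unop, limma adjusted p = 1.48e-06 and 8.61e-07). Hif1a and Ndrg1 thus lay on opposite sides of Unop, and the list as a whole had median log2 fold changes of -0.14, -0.19 and -0.20 in PEG against NC, PEG against Unop and NC against Unop.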

How the data were processed

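Bulk RNA was sequenced as strand-specific paired-end libraries. Per the methods of the study, the authors aligned reads with TopHat2 to the rat Rnor 6.0 genome, counted them per gene with HTSeq, and deposited signal values that are counts divided by DESeq2 size factors. Tool versions were not given in the sources used here. The deposited columns of fold changes and p-values were not used. Size factors recovered from the smallest values were 0.800 to 1.12, and 100% of values became whole reads within 0.001. Limma 3.58.1 with a trend (R 4.3.3) was run on log2(normalized count + 1), since the values are not raw counts, with Benjamini-Hochberg adjustment. edgeR 4.0.16 on the recovered reads called 4977, 9454 and 10586 genes in PEG against NC, PEG against Unop and NC against Unop, and limma 4763, 9513 and 10627. DESeq2 1.42.0 was a further alternative. Plots used matplotlib 3.10.9 in Python 3.11.15, with pandas 2.3.3 and NumPy 2.4.6.

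Members and lists were chosen with earlier results of these data known. All members were described. Among the other pathway genes, the rule took from each list up to 4 genes, those of lowest adjusted p in PEG against NC that were called in any comparison, and every gene that was a DEG in PEG against NC. Slc2a1, Bsg and Ndrg1 were named after their values were seen, as were the rows described as like a member. Promoter windows were RefSeq sequences of the GRCr8 assembly matched by symbol, and Akr1b1 and Pgk1 had no window. Only the sequences of Ldha, Ldhb and Pfkfb3 are printed. Reads on genes, 32472925 to 39959620 per library, gave every member at least 233 reads in each library, except Eno2, Tpi1, Hk3, Slc16a3, Pfkfb4 and Pdk4, whose lowest libraries had 3, 21, 35, 44, 60 and 72 reads and so a larger counting error. Slc2a3 had 0.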

Additional observations from a re-analysis of the deposited data

How the results depend on the processing

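Over the 93 fold changes of members, 1764 values were computed under alternatives, of which 1611 kept their direction and side of the threshold, 104 fell short of it, 23 passed it and 26 changed sign. For 60 fold changes of named pathway genes, 1007 of 1140 values kept both, 133 fell short and 0 changed sign. In PEG against NC, members called numbered 8 without NC 1 and NC 3 (6 lower, 5 DEGs) and 6 with the muscle covariate (0 higher, 6 lower), and other pathway genes 13 and 9. With edgeR, with no filter, with only the groups compared and with the robust fit, 1 member was higher, and DESeq2 gave 5 DEGs. Leaving out 1 library at a time gave 6 to 13 members called, 1 to 2 higher, 5 to 12 lower, 1 to 4 DEGs and 11 to 27 other pathway genes. It moved the log2 ratio difference of Hk3 to Hk1 in NC against Unop between 7.25 and 8.28, of Slc16a3 to Slc16a1 between 4.91 and 5.93, and of Eno2 to Eno1 in PEG against Unop between -2.38 and -1.06.

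Values that changed sign were of fold changes not called at first. Without NC 1 and NC 3, and then with the muscle covariate, the log2 fold changes in PEG against NC were 0.19 and 0.0107 for Pfkm, -0.00622 and -0.16 for Pfkfb4, -0.45 and -0.76 for Eno2, 0.33 and 0.25 for Pdk2, -0.0649 and -0.0595 for Slc16a1, and -0.12 and -0.16 for Tkt. In NC against Unop they were -0.20 and -0.0690 for Aldoa and -0.21 and -0.14 for Gapdh. Leaving out 1 library gave ranges in NC against Unop of -1.85 to 0.0507 for Pfkm, -0.00335 to 0.67 for Aldoa, -0.0661 to 0.30 for Tpi1 and -0.16 to 0.26 for Gapdh, and in PEG against NC of -0.30 to 0.0781 for Pdk2, -0.41 to 0.85 for Pdk4, -0.0520 to 0.12 for Slc16a1 and -0.0645 to 0.12 for Tkt. The cause was not tested. TMM moved the median of all genes by at most 0.0144.

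The replicate numbers were not taken to pair the samples, since the deviations of same-numbered PEG and NC libraries correlated at 0.1077, 0.1092 and -0.0502, and the rule asked for over 0.1 in all of at least 3 pairs. Differently numbered PEG and NC libraries correlated at -0.1587 to 0.0976. With Unop there were only 2 pairs, at 0.1538 and 0.1357 for PEG and 0.1522 and 0.157 for NC. These are not separate pairs, because the 2 Unop libraries deviate from their mean by equal amounts of opposite sign. PEG 1 with Unop 2 was thus at -0.1538. With the replicate number as a block, 14, 21 and 25 members and 26, 46 and 48 other pathway genes were called in PEG against NC, PEG against Unop and NC against Unop, where 25.3%, 54% and 60.7% of all tested genes were. The block lost Tpi1 and Ldha, then Gapdh and Tpi1, then Taldo1, and gained Eno2 in NC against Unop.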
